A study of Mus musculus with 3 samples.

Results

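The nuclear-encoded subunits of the mitochondrial respiratory chain and ATP synthase were followed in prostate tumors of TRAMP mice with and without Phf8. The genes were taken by symbol: all rows starting with Ndufa, Ndufb, Ndufc, Ndufs, Ndufv, Uqcr, Cox4, Cox5, Cox6, Cox7, Cox8 or Atp5, together with Sdha, Sdhb, Sdhc and Sdhd. Of 101 such symbols, 7 Ndufaf genes, 9 symbols containing -ps and Cox6a2 were left out, which gave 84 genes among 46095. They comprise 36 genes of complex I, 4 of complex II, 8 of complex III, 19 of complex IV and 17 of complex V. Ndufa4 and Ndufa4l2 were placed in complex IV, where the Ndufa4 protein is now known to sit. Atp5s and Atp5sl carry the prefix without being subunits of the enzyme, and were kept because the rule is by symbol.

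The study sequenced tumor RNA of 3 pools. TRAMP male mice, which express the SV40 oncoprotein in the prostatic epithelium on the C57BL/6 background, gave 1 pool with wild-type Phf8, here called TRAMP. Male offspring of Phf8 knockout females and TRAMP males gave the pools Phf8-KO1 and Phf8-KO2, which carry the same oncoprotein but lack the histone demethylase Phf8. Each pool held RNA of 3 mice aged 37 weeks, so the spread between mice within a pool was not measured, and no source used here says whether the 2 Phf8-KO pools came from separate animals.

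The respiratory chain passes electrons from NADH (complex I) and succinate (complex II) through ubiquinone to complex III and on to oxygen at complex IV, and complex V makes ATP from the proton gradient this builds. Its complexes are assembled from proteins of both genomes, except complex II, which is wholly nuclear-encoded. Several complex IV subunits exist in a widely expressed form and a form restricted to heart and skeletal muscle, lung, testis or other tissues, so an isoform pair also carries information on which cells a sample holds.

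The isoform pairs of subunits 7a and 8 of complex IV gave some of the clearest contrasts below, and their promoters are shown here because one form of each pair is widely expressed and the other is restricted to muscle and brown fat. The sequences are from RefSeq on GRCm38.p6, run 5′ to 3′ on the gene's strand from 250 bases before to 50 bases after the annotated start. Capitals mark matches, on either strand, to CCGGAAG (bound by ETS factors such as GABP), GCATGCG (NRF1), GGGCGG (SP factors), TATAAA (the TATA box) or CAGCTG (an E-box).
Cox8a, minus strand, chr19:7217567-7217866: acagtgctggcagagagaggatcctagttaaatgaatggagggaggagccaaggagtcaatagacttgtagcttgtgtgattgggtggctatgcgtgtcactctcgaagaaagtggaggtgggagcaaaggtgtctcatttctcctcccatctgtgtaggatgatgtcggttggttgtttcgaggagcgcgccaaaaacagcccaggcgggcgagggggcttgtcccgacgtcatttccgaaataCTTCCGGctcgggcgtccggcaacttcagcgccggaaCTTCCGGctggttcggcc
Cox8b, minus strand, chr7:140900397-140900696: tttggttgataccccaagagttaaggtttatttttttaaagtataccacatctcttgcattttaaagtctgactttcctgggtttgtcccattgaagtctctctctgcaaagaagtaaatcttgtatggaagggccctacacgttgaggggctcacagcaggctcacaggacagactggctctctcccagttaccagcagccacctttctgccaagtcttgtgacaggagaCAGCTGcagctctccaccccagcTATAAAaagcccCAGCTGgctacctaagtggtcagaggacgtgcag
Cox7a2, minus strand, chr9:79759804-79760103: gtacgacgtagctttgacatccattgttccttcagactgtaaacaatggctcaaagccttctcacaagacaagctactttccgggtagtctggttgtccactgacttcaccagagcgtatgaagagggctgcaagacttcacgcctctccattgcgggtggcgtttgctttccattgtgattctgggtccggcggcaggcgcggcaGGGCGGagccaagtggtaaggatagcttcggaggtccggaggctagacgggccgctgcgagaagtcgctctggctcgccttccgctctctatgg
Cox7a1, plus strand, chr7:30183921-30184220: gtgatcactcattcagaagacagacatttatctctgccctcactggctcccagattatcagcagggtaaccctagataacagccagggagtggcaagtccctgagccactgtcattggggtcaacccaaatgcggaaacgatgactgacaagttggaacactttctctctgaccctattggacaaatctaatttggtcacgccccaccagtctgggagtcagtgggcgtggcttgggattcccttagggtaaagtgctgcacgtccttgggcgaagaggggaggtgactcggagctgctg
The widely expressed Cox8a held the ETS letters at 2 places, with first bases at -5 and 33 from the annotated start. Cox7a2 held the SP letters at -44. Cox8b held TATAAA at 5, downstream of its annotated start, and 2 copies of CAGCTG at -19 and 17. Cox7a1 held none of the 5 motifs. The matches in these windows did not overlap one another. Promoters were listed for 70 of the 84 genes. The ETS letters were present at 22.9% of these genes and in 8.86% of all 32851 promoters listed, and the NRF1 letters at 15.7% against 3.58%. For the SP letters the shares were 41.4% and 35.7%, for TATAAA 10% and 13.6%, and for CAGCTG 8.57% and 16.3%. Genes with several listed promoters were counted once if any of them held the letters, and a match describes the sequence without showing that a factor binds.

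The libraries held 26747443 to 31876182 counts. Phf8 itself stood at 19.4 CPM in TRAMP, against 15.0 and 15.9 CPM in the first and the second Phf8-KO pool (counts per TMM-scaled library of equal size), and because the deleted part of the gene is not given here, these reads are no check of the genotype. Since TRAMP is 1 library, replicate spread came only from the pair of Phf8-KO pools (1 residual degree of freedom). Each edgeR test moderated it towards a trend over all genes and applied it to TRAMP as well. In these bulk tumors fewer cells of a type and less RNA per cell cannot be told apart. Markers of other cell types were summed in the same way, in the order TRAMP, Phf8-KO1, Phf8-KO2. Luminal prostate markers had sums of 2910, 3256 and 2835 CPM, with 3 of 7 below TRAMP in both Phf8-KO pools and 3 above. Neuroendocrine markers (5 of 6 below in both) summed to 92.6, 39.8 and 21.6 CPM, immune markers (5 of 5) to 92.5, 39.4 and 21.5 CPM, erythroid markers (4 of 4) to 327, 84.4 and 58.2 CPM, and fibroblast markers (1 of 5 below, 3 above) to 1681, 1660 and 616 CPM. Basal markers (0 of 3 below, 1 above) had 29.1, 25.1 and 55.7 CPM. The part of these cells in the subunit levels was not tested. A marked relation to base composition ran through the whole comparison, and is given with its values after the complexes.

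Most subunit genes were somewhat lower in the Phf8-KO pools, by less than 2-fold, and no gene passed the call. Of the 84 genes, 82 had enough counts to test, and Cox7b2 and Cox8c had 0 counts in all 3 libraries, where 3 counts would correspond to 0.0905 to 0.113 CPM. Below TRAMP in both Phf8-KO pools were 46 of the 82 (56.1%), against 42.8% of all 18216 genes tested. Above TRAMP in both were 19 (23.2%), against 40.8%. The median log2 fold change was -0.24 over the 82 genes and 0.01 over all genes tested. The lower and upper quartiles were -0.55 and 0.11. A difference of more than 2-fold was found for 7 of the 82, against 6112 of all 18216 genes tested. Among genes with a mean of at least 10 CPM it was found for 0 of 73, against 2071 of 10181.

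In edgeR's quasi-likelihood test (Benjamini-Hochberg adjusted), 0 of the 82 genes were called lower and 0 higher at an adjusted p under 0.05 and a change over 2-fold, and the smallest adjusted p was 0.101, of Cox8b. The call was made for 0.0384% of all genes in the lower and 0% in the higher direction. The unadjusted p was under 0.05 for 14 lower and 9 higher genes, which is 17.1% and 11% of the 82, beside 12.2% and 14.9% of all genes. DESeq2 called 1 gene lower (Cox8b) and 1 higher (Cox6b2), against 4.59% and 9.42% of all genes, and limma-voom called 0 in either direction. Without a filter on low counts edgeR called 2 lower (Cox8b and Ndufa7) and 0 higher, against 3.32% and 5.55% of all genes under that setting. With no requirement on the fold, DESeq2 gave an adjusted p under 0.05 to 3 genes that were lower (Ndufb3, Uqcrc2 and Cox8b) and 3 that were higher (Cox6a1, Cox6b2 and Atp5d), against 5.54% and 10.9% of all genes.

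**Figure D1:**
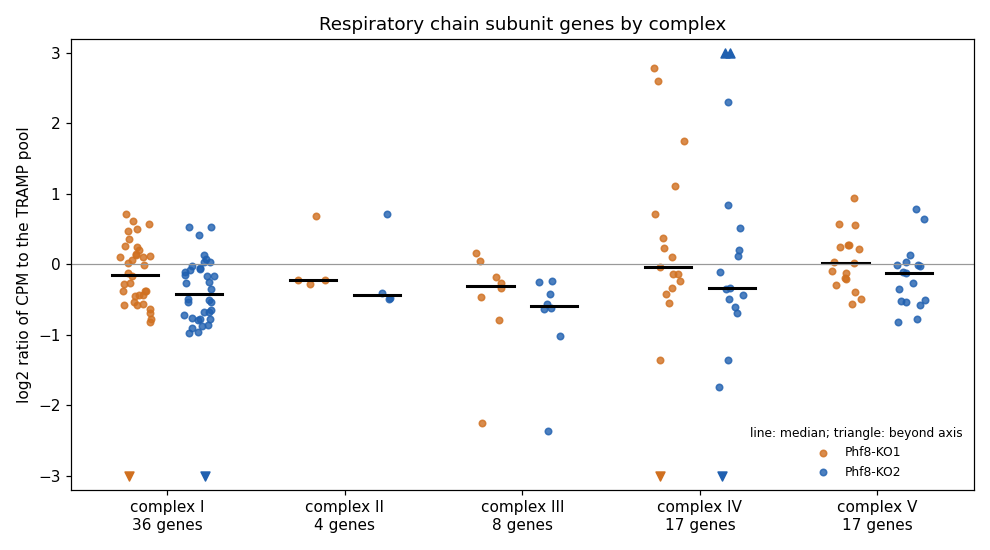
Each point is 1 gene in 1 Phf8-KO pool, as the log2 ratio of its CPM to the TRAMP pool (vertical axis), grouped by complex (horizontal axis). Black lines are the medians of each pool, and triangles mark genes beyond the axis. The Phf8-KO2 median lies below the Phf8-KO1 median in every complex, and complex III has the lowest median in both pools.

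The 2 Phf8-KO pools did not stand at the same level. Phf8-KO2 was below Phf8-KO1 in 73 of the 82 genes (89.0%), against 50.1% of all genes tested, with a median log2 ratio of -0.23. The 9 exceptions were Ndufv3, Ndufa7, Sdhc, Cox5a, Cox4i2, Cox6b2, Ndufa4l2, Atp5s and Atp5sl, which include the 3 restricted isoforms that were above TRAMP and both genes that are no subunits. The median log2 ratio to TRAMP was -0.13 for the first pool and -0.35 for the second, against -0.01 and -0.05 over all genes tested. The size of the subunit difference thus depended on the pool.

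The 84 genes summed to 12235 CPM in TRAMP, 11475 in Phf8-KO1 and 9605 in Phf8-KO2. The Phf8-KO sums were 93.8% and 78.5% of TRAMP. For the summed CPM of all genes tested these shares were 96.8% and 92.8%, so sums below TRAMP were not particular to the subunits. Complex I went from 3650 CPM in TRAMP to 3219 and 2713 CPM, a Phf8-KO mean of 2966 ± 358 CPM (SD, n = 2 pools). Complex II stood at 660 CPM against 609 and 540 CPM. Both complexes were lower in each Phf8-KO pool. Relative to TRAMP, complex III had the widest gap, from 1724 CPM in TRAMP to 1376 and 1128 CPM (1252 ± 176, SD, n = 2), which is 79.8% and 65.4% of the TRAMP level. Complex IV had 2639 CPM against 2664 and 2173, and complex V 3562 against 3607 and 3051. In complexes IV and V the TRAMP value lay between the 2 Phf8-KO values. With 1 pool against 2 an exact permutation test cannot go below a one-sided p of 0.333, so these sums carry no test.

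**Figure D2:**
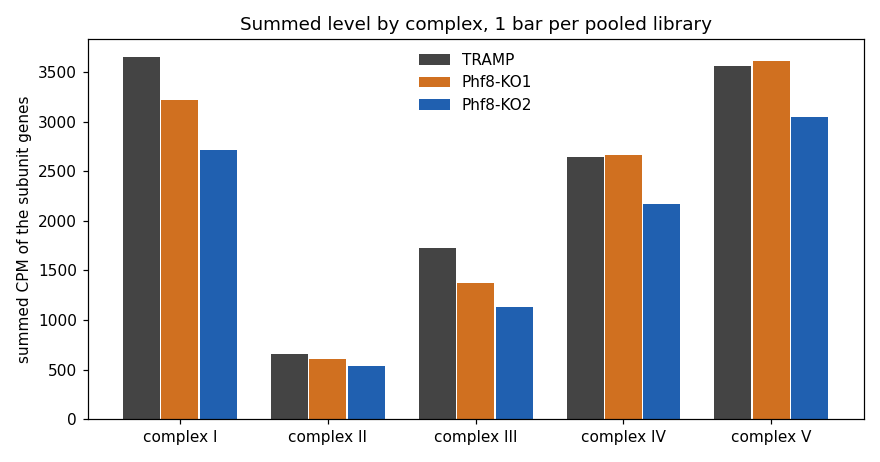
Bars give the summed CPM of the subunit genes (vertical axis, from 0) for each complex, 1 bar for each pooled library, with no error bar because each bar is 1 library. Complexes I, II and III stand highest in TRAMP, and complexes IV and V highest in Phf8-KO1, at 2664 and 3607 CPM.

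Complex I, the NADH dehydrogenase, is built from core subunits that carry the flavin and iron-sulfur clusters and from accessory subunits around them. Of its 36 genes, 20 were below TRAMP in both Phf8-KO pools and 7 above, with a median log2 fold change of -0.22. The accessory subunits of the matrix arm were below TRAMP in 6 of 9 and above in 0, those of the membrane arm below in 11 of 19 and above in 4, and the core subunits below in 3 of 7 and above in 2. The median of the core subunits was -0.01, and -0.30 when a term for exon GC content was fitted in each library, an adjustment described after the complexes. The unadjusted p was under 0.05 for 8 lower and 2 higher complex I genes.

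Ndufb3, an accessory subunit of the membrane arm, had 160 CPM in TRAMP, 93.9 in Phf8-KO1 and 82.1 in Phf8-KO2. TRAMP stood apart from the Phf8-KO pools, which averaged 88.0 ± 8.36 CPM (SD, n = 2), and its log2 fold change was -0.87 (standard error 0.19, adjusted p = 0.114 in edgeR's quasi-likelihood test and 0.0273 in DESeq2). After GC adjustment it was -0.47. Ndufb9, another membrane arm subunit, had 179, 115 and 106 CPM (log2 fold change -0.70, or -1.08 after GC adjustment). Both genes were below TRAMP in each knockout pool, as were 42.8% of all genes tested. Ndufv2, an iron-sulfur subunit of the NADH-oxidizing module, had 167 CPM in TRAMP against 104 and 96.8 CPM, a log2 fold change of -0.73. Ndufs1, the largest core subunit of the same module, had 133 CPM against 89.3 and 76.8 CPM. The pair of core subunits was lower in each Phf8-KO pool, by values beyond the Phf8-KO spread of 4.78 and 8.85 CPM (SD, n = 2). GC adjustment, however, took the log2 fold change of Ndufv2 from -0.73 to -0.18 and that of Ndufs1 from -0.68 to -0.30. Ndufv1, another core subunit of this module, had 91.8 CPM in TRAMP, between 100 in Phf8-KO1 and 85.3 in Phf8-KO2. Its log2 fold change was 0.01, and -0.50 after GC adjustment.

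Subunits of the module that reduces ubiquinone lay on both sides of TRAMP in CPM. Ndufs8, an iron-sulfur subunit of this module, had 93.9 CPM in TRAMP, 71.9 in Phf8-KO1 and 51.2 in Phf8-KO2 (log2 fold change -0.61, and -1.25 after GC adjustment). Ndufs7, which carries the last iron-sulfur cluster before ubiquinone, had 30.7 CPM in TRAMP and 46.9 and 44.3 CPM in the knockout pools (log2 fold change 0.57, standard error 0.19, but -0.32 after adjustment for GC content). Ndufa8, an accessory subunit facing the intermembrane space, was also above TRAMP, with 43.0 CPM against 70.3 and 62.2 CPM (log2 fold change 0.62, and 0.34 after GC adjustment). Neither of these higher genes passed edgeR's quasi-likelihood test (adjusted p = 0.171 for Ndufs7 and 0.163 for Ndufa8).

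Ndufa7, an accessory subunit of the matrix arm at chr17:33824572-33838316, was sparsely counted, with 46 counts in TRAMP, 1 in Phf8-KO1 and 4 in Phf8-KO2. The ratio of Phf8-KO to TRAMP was 0.0525 (95% exact counting interval 0.0163 to 0.132). Per exon length, its level in TRAMP was 3.02 CPM per kb, below that of every other complex I gene tested, the nearest being Ndufb4 at 5.74 CPM per kb. No exon base of Ndufa7 lies in another annotated gene and 1.88% of its 50-base words occur in other transcripts, and the cause of the low count was not tested.

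Complex II, succinate dehydrogenase, is a heterotetramer that also belongs to the citric acid cycle, and 1 of its 4 genes went the other way. Sdha, the flavoprotein, had 292 CPM in TRAMP, 250 in Phf8-KO1 and 221 in Phf8-KO2. Sdhb, the iron-sulfur subunit, had 95.2, 78.6 and 68.2 CPM, and Sdhd, a membrane anchor, had 209, 179 and 148 CPM. These 3 genes were lower in both Phf8-KO pools, with log2 fold changes of -0.31, -0.38 and -0.36 and adjusted p of 0.409, 0.294 and 0.362 (edgeR's quasi-likelihood test). After GC adjustment they were -0.11, -0.71 and -0.23. Sdhc, the other membrane anchor, at chr1:171129157-171150640, had 62.6 CPM in TRAMP and 101 and 103 CPM in the Phf8-KO pools, which averaged 102 ± 1.36 CPM (SD, n = 2). Its log2 fold change was 0.70 (standard error 0.18, adjusted p = 0.131 in edgeR's quasi-likelihood test and 0.0759 in DESeq2) and 0.89 after GC adjustment. The ratio of Sdhc to Sdha CPM was 0.214 in TRAMP and 0.403 and 0.465 in the Phf8-KO pools, whereas that of Sdha to Sdhb was 3.07, 3.19 and 3.24. The difference in log2 fold change was 1.01 between Sdhc and Sdha and 0.07 between Sdha and Sdhb, and after GC adjustment 1.001 and 0.60.

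Among the genes taken by symbol, complex III, the cytochrome bc1 complex, was the only complex with none above TRAMP in both Phf8-KO pools. Of its 8 genes taken this way, 6 were below TRAMP in both, and the median log2 fold change was -0.44. Cyc1, the cytochrome c1 subunit of complex III, falls outside the symbol rule and was listed with the electron carriers. It was above TRAMP in both pools, with 56.6 CPM against 82.6 and 75.5 CPM (log2 fold change 0.48, and 0.07 after GC adjustment). Uqcrc2, a core protein at chr7:120635189-120659523, had 313 CPM in TRAMP, 181 in Phf8-KO1 and 154 in Phf8-KO2. TRAMP was well above the Phf8-KO mean of 167 ± 18.7 CPM (SD, n = 2), and the log2 fold change of -0.90 (standard error 0.21) had adjusted p-values of 0.122 (edgeR's quasi-likelihood test) and 0.0161 (DESeq2). After GC adjustment it was -0.48. Of the exon bases of Uqcrc2, 19.7% overlap Pdzd9 on the opposite strand, and without a stated strand setting their reads cannot be told apart.

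The smaller subunits of complex III were also lower or level. Uqcrb had 214 CPM in TRAMP, 154 in Phf8-KO1 and 137 in Phf8-KO2 (log2 fold change -0.55, adjusted p = 0.183, edgeR's quasi-likelihood test, and -0.01 after GC adjustment). Uqcrh, the hinge protein, had 644, 533 and 417 CPM, and Uqcr10 had 195, 154 and 132 CPM (log2 fold change -0.45, and -0.84 after GC adjustment). Per kilobase of transcript, Uqcrh was the most abundant of the 84 genes in every library, with 1177 CPM per kb in TRAMP, 975 in Phf8-KO1 and 763 in Phf8-KO2. Uqcrfs1, the Rieske iron-sulfur protein, had 139 CPM against 123 and 104 CPM (log2 fold change -0.29, and -0.09 after GC adjustment). Uqcrq was level, with 91.5 CPM between the Phf8-KO values of 103 and 77.0 CPM, and the sign of its log2 fold change (-0.03) turned under library size scaling and GC adjustment.

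Uqcrc1, the partner core protein of Uqcrc2, stood at 104 counts in TRAMP, 20 in Phf8-KO1 and 23 in Phf8-KO2. The Phf8-KO to TRAMP ratio was 0.2 (95% exact counting interval 0.137 to 0.288), and the log2 fold change of -2.31 gave 0.133 as its adjusted p (edgeR's quasi-likelihood test). On the per-length scale Uqcrc1 had 2.18 CPM per kb in TRAMP and Uqcrc2 165, although both are structural parts of the same enzyme. None of the exon bases of Uqcrc1 lie in other genes, none of its 50-base words occur in other transcripts, and the cause of the low count was not tested.

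Complex IV, cytochrome c oxidase, held both directions among its 11 widely expressed subunits, of which 6 were below and 4 above TRAMP in both Phf8-KO pools. Cox6a1 had 90.9 CPM in TRAMP, 195 in Phf8-KO1 and 163 in Phf8-KO2. Its Phf8-KO mean was 179 ± 23.2 CPM (SD, n = 2), and the log2 fold change of 0.98 (standard error 0.23) had adjusted p-values of 0.118 (edgeR's quasi-likelihood test) and 0.00939 (DESeq2). After GC adjustment it was 0.24. Cox4i1, the widely expressed form of the regulatory subunit 4, was likewise higher, with 239 CPM against 391 and 340 CPM (log2 fold change 0.61, but -0.05 after GC adjustment).

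Ndufa4 was lower, with 338 CPM in TRAMP, 232 in Phf8-KO1 and 132 in Phf8-KO2. The knockout pools lay far apart, at 182 ± 70.4 CPM (SD, n = 2), and the log2 fold change of -0.89 (standard error 0.40) gave 0.248 as its adjusted p (edgeR's quasi-likelihood test). After GC adjustment it was -0.46. Cox6c had 269, 201 and 167 CPM (log2 fold change -0.55, and -0.37 after GC adjustment). The ratio of Cox4i1 to Cox6c CPM was 0.886 in TRAMP and 1.95 and 2.04 in the Phf8-KO pools. The log2 fold changes of this pair differed by 1.17, and by 0.32 after GC adjustment.

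The tissue-restricted isoforms of complex IV went furthest in either direction, at low levels. Cox8b, the muscle and brown fat form of subunit 8, at chr7:140898942-140900446, had 128 counts in TRAMP and 2 in each Phf8-KO pool. The ratio of Phf8-KO to TRAMP was 0.0151 (95% exact counting interval 0.00405 to 0.0396), the adjusted p 0.101 in edgeR's quasi-likelihood test and 0.000332 in DESeq2. Cox8a, the widely expressed form, had 165 CPM in TRAMP, 215 in Phf8-KO1 and 191 in Phf8-KO2 (log2 fold change 0.29, but -0.42 after GC adjustment). Per kilobase of transcript, Cox8b made up 3.93% of the pair in TRAMP and 0.0534% and 0.0483% in the Phf8-KO pools.

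Cox7a1, the heart and muscle form of subunit 7a, had 5.68 CPM in TRAMP against 2.21 and 1.69 CPM, a Phf8-KO to TRAMP ratio of 0.339 (95% exact counting interval 0.265 to 0.433). Its partner Cox7a2 had 179 CPM against 151 and 141 CPM. The restricted form was 5.06% of this pair per kilobase in TRAMP and 2.40% and 1.97% in the knockout pools. Cox7a1 and Cox8b were thus both low in each Phf8-KO pool, and their promoters, printed above, shared no motif among those searched.

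The skeletal muscle markers moved in the same direction as these isoforms. All 10 listed muscle genes were below TRAMP in both Phf8-KO pools. Together they had 1731 CPM in TRAMP, 74.4 in Phf8-KO1 and 17.3 in Phf8-KO2. Most of the Phf8-KO1 sum was Acta1, which had 138, 63.4 and 2.51 CPM in the same order. Myh2 had 0 counts in both knockout pools. Of 9 fat cell markers 7 were below in both, with sums of 1174, 115 and 142 CPM. Brown fat markers were low throughout, with sums of 3.60, 1.91 and 1.84 CPM, and Elovl3 at 0 counts. The part of muscle or fat tissue in the values of Cox8b and Cox7a1 was not tested.

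Cox4i2, the form of subunit 4 best known from lung, had 8 counts in TRAMP, 45 in Phf8-KO1 and 76 in Phf8-KO2, and a Phf8-KO to TRAMP ratio of 7.31 (95% exact counting interval 3.59 to 17.3). Cox6b2, the testis form of subunit 6b, had 1.52 CPM in TRAMP against 5.10 and 7.52 CPM (log2 fold change 2.05, adjusted p = 0.143 in edgeR's quasi-likelihood test and 0.0377 in DESeq2), while its partner Cox6b1 had 471, 426 and 333 CPM. Ndufa4l2, the hypoxia-inducible relative of Ndufa4, had 3 counts in TRAMP, 19 in Phf8-KO1 and 68 in Phf8-KO2, a ratio of 14.0 (95% exact counting interval 4.64 to 69.3). All 3 restricted forms were lowest in TRAMP and highest in Phf8-KO2. Even there each was a small part of its pair per kilobase, with 0.698% for Cox4i2, 2.33% for Cox6b2 and 1.002% for Ndufa4l2.

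Seminal vesicle markers moved with these 3 genes: 6 of 6 were above TRAMP in both Phf8-KO pools, with sums of 112 CPM in TRAMP, 1385 in Phf8-KO1 and 2034 in Phf8-KO2. Smooth muscle markers had sums of 709, 5277 and 435 CPM, with 4 of 10 above TRAMP in both pools and 0 below. Endothelial markers had sums of 40.3, 37.3 and 80.0 CPM. The part of these tissues in the isoform values was not tested.

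**Figure D3:**
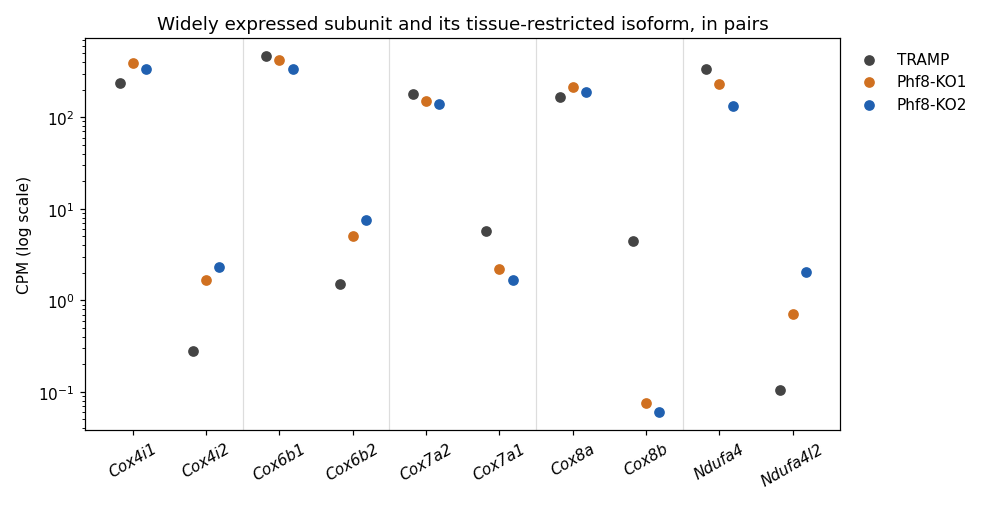
Points give the CPM (vertical log axis) of 5 widely expressed complex IV genes, each followed by its tissue-restricted relative (horizontal axis), in the 3 pooled libraries. Cox7a1 and Cox8b stand highest in TRAMP, and Cox4i2, Cox6b2 and Ndufa4l2 stand lowest there, while no widely expressed gene spans more than the 338 to 132 CPM of Ndufa4.

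Complex V, the ATP synthase, was divided by its parts. In the F1 portion, which holds the catalytic sites and the central stalk, 3 of 5 genes were above TRAMP in both Phf8-KO pools and 1 below. Of the 7 genes of the peripheral stalk and membrane portion, 6 were below in both and 0 above, with a median log2 fold change of -0.35. The F1 median was 0.20, and after GC adjustment -0.004 against -0.49 for the stalk and membrane genes. The 3 c-ring genes lay on neither side in both pools. The summed CPM of the F1 genes was 1.47 times that of the stalk and membrane genes in TRAMP and 2.00 and 2.04 times in the Phf8-KO pools.

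Within F1, Atp5b, the catalytic beta subunit, had 656 CPM in TRAMP, 794 in Phf8-KO1 and 716 in Phf8-KO2, and the alpha subunit Atp5a1 had 646, 765 and 639 CPM. Neither passed the test (adjusted p = 0.666 and 0.810, edgeR's quasi-likelihood test). Atp5d, the delta subunit of the central stalk, had 106 CPM against 204 and 165 CPM, and its log2 fold change was 0.80 (standard error 0.23, adjusted p = 0.150 in edgeR's quasi-likelihood test and 0.0464 in DESeq2, and -0.13 after GC adjustment). Atp5c1, the gamma subunit beside it, had 488 CPM against 347 and 277 CPM (log2 fold change -0.64, and -0.39 after GC adjustment). The ratio of Atp5d to Atp5c1 CPM was 0.217 in TRAMP, and 0.586 and 0.596 in the Phf8-KO pools. The difference in log2 fold change of 1.44 between the pair was 0.26 after GC adjustment.

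In the peripheral stalk, Atp5f1, the b subunit, had 402 CPM in TRAMP, 271 in Phf8-KO1 and 235 in Phf8-KO2. Both Phf8-KO values were below TRAMP, as for 42.8% of all genes tested. The log2 fold change was -0.67 (standard error 0.23, adjusted p = 0.176, edgeR's quasi-likelihood test). Atp5sl, which is not a subunit, had 25.9 CPM against 38.7 and 44.5 CPM (log2 fold change 0.68). Reads of some complex V genes may be split with near-identical copies: of the 50-base words of Atp5g2, a c-ring gene with 2.18 CPM in TRAMP, 87.4% occur in other transcripts, and of those of Atp5l 84.8%. Over all 84 genes, 18 shared more than 20% of their words and 42 less than 1%.

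Base composition moved with the comparison, among the subunit genes and across the transcriptome. Over 10073 genes with a mean of at least 10 CPM, the log2 fold change correlated with exon GC content at a Pearson r of 0.39 and a Spearman rho of 0.52, as a description across genes that share 3 libraries. The median log2 fold change went from -0.45 in genes under 40% GC to 1.07 in genes over 60%. Between the 2 Phf8-KO pools the rho was 0.03. Over the 73 subunit genes at this level r was 0.49 and rho 0.48. Of the 18 subunit genes from 40% to 48% GC, 15 were below TRAMP in both pools and 1 above, and of the 12 from 56% GC upwards, 4 were below and 6 above.

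Within GC bins, the median of the subunit genes was below that of all genes in each of the 6 bins that held any of them. Both sides of this comparison were limited to genes with a mean of at least 10 CPM. From 48% to 52% GC the median log2 fold change was -0.22 for 26 subunit genes and 0.10 for all 2238 such genes. From 52% to 56% it was -0.11 for 17 subunit genes and 0.42 for 2137 genes, and from 56% to 60% it was 0.01 for 9 and 0.80 for 1388. When a GC term was fitted in each library, 55 of the 82 genes were below TRAMP in both pools (67.1%) and 18 above (22%), against 38.2% and 43.2% of 16945 genes. The median log2 fold change was then -0.27 for the subunits and 0.08 for all genes. The unadjusted p was under 0.05 for 13 lower and 3 higher genes, against 9.25% and 12.5% of all genes, and 0 were called. After this adjustment rho over the 73 genes was -0.41. Whether the GC relation is technical was not tested.

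**Figure D4:**
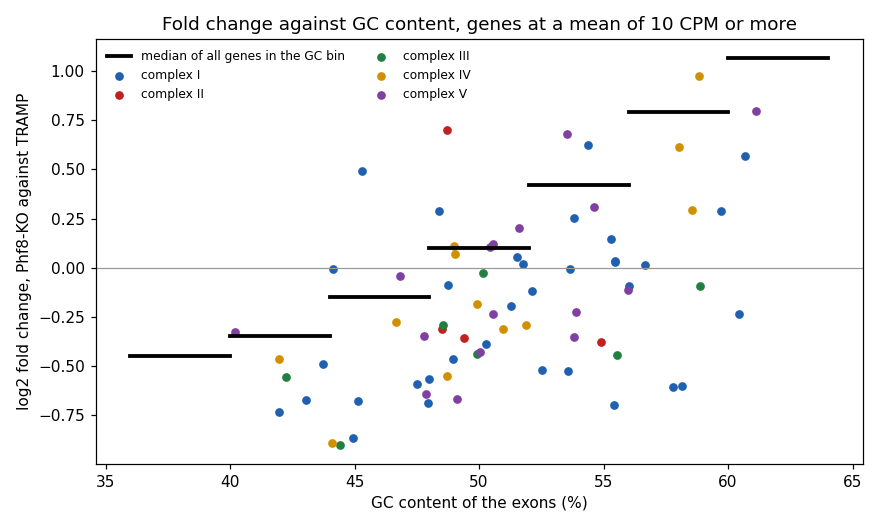
Each point is 1 of 73 subunit genes with a mean of at least 10 CPM, colored by complex, with exon GC content in percent (horizontal axis) against the log2 fold change of Phf8-KO over TRAMP (vertical axis). Black bars are medians of all genes at this level in each GC bin, with the outer bins drawn from 36% and to 64%. Most points lie below the bar of their bin, and both go up with GC content.

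The other genes of the pathway were followed with fixed lists, and none of their members passed edgeR's quasi-likelihood call. Each count of genes below or above TRAMP in both Phf8-KO pools is read beside 42.8% and 40.8% of all genes tested, and each count at an unadjusted p under 0.05 beside 12.2% lower and 14.9% higher. The 13 mitochondrially encoded subunits were below TRAMP in both pools for 10 and above for 0, and summed to 69404 CPM in TRAMP, 62377 in Phf8-KO1 and 44912 in Phf8-KO2. Phf8-KO2 was lower than Phf8-KO1 for all 13, as for most nuclear subunits. ND6, a complex I subunit encoded on the other strand from the rest, had 95.6 CPM against 34.5 and 31.7 CPM (log2 fold change -1.53, adjusted p = 0.101 in edgeR's quasi-likelihood test, and -0.90 after GC adjustment). ND3 had 8.00, 2.97 and 1.54 CPM (log2 fold change -1.83, and -1.21 after GC adjustment). Of its 50-base words 98.0% also occur in another gene, as do 100% of those of COX2, 99.9% of COX3, 99.5% of ATP6 and 98.8% of ND4L, and the part of this sharing in their levels was not tested. The unadjusted p was under 0.05 for 2 of the 13, both lower. The median log2 fold change of the 13 was -0.46, and its sign turned to 0.17 after GC adjustment.

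Of 14 assembly factors for complex I, 10 were below TRAMP in both pools (71.4%) and 2 above, with a median log2 fold change of -0.08 and of 0.04 after GC adjustment. The unadjusted p was under 0.05 for 2 of them, both lower. Tmem126b had 21.1, 10.7 and 11 CPM and Ndufaf2 58.9, 39.1 and 32.8 CPM in TRAMP, Phf8-KO1 and Phf8-KO2, and their log2 fold changes of -0.96 and -0.71 were -0.56 and -0.44 after GC adjustment. Of 13 factors for complexes II, III and V, 6 were below and 4 above, with an unadjusted p under 0.05 for 0 lower and 1 higher gene (Atpaf2, with 20.6, 30.6 and 31.9 CPM). Tmem70 had 41.4, 32.5 and 26 CPM (log2 fold change -0.50, and -0.13 after GC adjustment). Of 20 for complex IV, 10 were below and 10 above, with an unadjusted p under 0.05 for 1 lower and 2 higher genes, the heme A synthesis genes Cox10 (5.36, 12 and 13.3 CPM) and Cox15 (16.5, 25.8 and 31.7 CPM). The named complex I factors were lower, and the heme A genes higher, in both Phf8-KO pools.

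Of 14 genes of the electron carriers and of ubiquinone synthesis (Coq and Pdss genes), 4 were below TRAMP in both pools and 5 above. The unadjusted p was under 0.05 for 1 lower and 1 higher gene. Both serve the transfer from fatty acid oxidation to ubiquinone: Etfdh had 91.9, 58.9 and 55.6 CPM (log2 fold change -0.68, and -0.39 after GC adjustment), and Etfb 99.0, 148 and 152 CPM (0.60, and 0.03 after GC adjustment). The citric acid cycle list also held the pyruvate dehydrogenase genes Pdha1, Pdhb and Dlat. Of its 16 genes, 7 were below TRAMP in both pools and 7 above. The unadjusted p was under 0.05 for 5 lower genes, Pdhb among them, and 3 higher genes, Dlat among them. Sucla2, a subunit of succinyl-CoA synthetase, had 141, 73.3 and 61.5 CPM (log2 fold change -1.06, and -0.57 after GC adjustment). Ogdh, a subunit of the oxoglutarate dehydrogenase complex, had 52.1, 139 and 141 CPM (log2 fold change 1.43, and 1.28 after GC adjustment). DESeq2 called Sucla2 lower and Ogdh higher (adjusted p = 0.00719 and 1.99e-05).

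Of 13 regulators of mitochondrial biogenesis tested, the unadjusted p was under 0.05 for 1 lower and 4 higher genes, and 9 were above TRAMP in both Phf8-KO pools and 4 below. Esrra, a nuclear receptor that activates respiratory genes, had 12.6 CPM in TRAMP, 32.1 in Phf8-KO1 and 44.3 in Phf8-KO2 (log2 fold change 1.60, adjusted p = 0.105 in edgeR's quasi-likelihood test and 0.00207 in DESeq2). The coactivator Pprc1 had 14.3, 35.1 and 36.2 CPM. In CPM both were more than 2-fold above TRAMP in each pool, but after GC adjustment the log2 fold change was 0.62 for Esrra and 0.89 for Pprc1, under 2-fold. The list had a median log2 fold change of 0.40, and of 0.37 after GC adjustment.

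Of 10 genes of mitochondrial carriers and Vdac porins, 5 were below TRAMP in both pools and 4 above. The unadjusted p was under 0.05 for 0 lower and 1 higher gene. Ucp2, a carrier of the uncoupling protein family, had 71.1 CPM in TRAMP against 342 and 384 CPM, a log2 fold change of 2.35 (standard error 0.25) with adjusted p-values of 0.101 (edgeR's quasi-likelihood test) and 2.12e-14 (DESeq2), and of 2.01 after GC adjustment. Slc25a20 had 22.9, 32.2 and 40.02 CPM. Of 17 protein import genes, 8 were below TRAMP in both pools and 6 above, and the unadjusted p was under 0.05 for 1 lower and 4 higher genes. Tomm40 had 13.6, 33.2 and 35.6 CPM (log2 fold change 1.34, and 0.38 after GC adjustment) and Tomm6 65.9, 125 and 113 CPM. Of the 77 mitochondrial ribosome genes, 40 were below TRAMP in both pools (51.9%) and 28 above (36.4%), with a median log2 fold change of -0.16. The unadjusted p was under 0.05 for 7 lower and 9 higher of them. Mrps18a (20.9, 48.5 and 49.4 CPM) and Mrps12 (26.5, 50.4 and 48.5 CPM) had the smallest p among them. Their log2 fold changes of 1.23 and 0.90 were 0.79 and 0.16 after GC adjustment.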

How the data were processed

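The deposited values are raw counts per gene. From total RNA, the authors filtered the reads, aligned these by HISAT2 to GRCm38, and obtained counts by HTSeq. Versions, annotation release, and the settings for strand and for reads matching several places are not given in the sources used here.

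The subunit genes and the pathway and marker lists were chosen with earlier results of these data known. Levels are CPM on TMM library sizes. The tests used edgeR 4.0.16 in R 4.3.3 (quasi-likelihood test at the default setting of this version, filterByExpr by group, two-sided, Benjamini-Hochberg adjustment over 18216 genes), with DESeq2 1.42.0, the tool of the paper, and limma 3.58.1 as alternatives. A standard error is the log2 fold change divided by the square root of F. A call required an adjusted p under 0.05 and a fold over 2 or under 0.5. The SD is over 2 pools, and p-values measure only the spread between these libraries. Intervals (95%, exact) and the floor of 3 counts cover counting error only. The Phf8-KO pools differed beyond counting noise (chi-square of 97.5 per degree of freedom).

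GC content and transcript length came from GENCODE M21 for 93.2% of the genes tested and for all 82 tested subunit genes. The GC adjustment, a loess offset in each library with a span of 0.3, was chosen after seeing the data. Scripts were tested on simulated counts with known changes.

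Named subunits are, for each complex, the 4 with the smallest p and the highest and lowest fold change at 10 CPM or more, all Sdh genes, and the restricted isoforms with their partners. For each pathway list, the 2 genes with the smallest p were named. Cox6c, Uqcrfs1, Uqcrh, Ndufs1, Ndufs7, Ndufs8, Ndufv1, Atp5a1, Atp5b, Atp5g2, Atp5l and Cyc1 were added after their values were seen.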

Additional observations from a re-analysis of the deposited data

How the results depend on the processing

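With RLE, upper quartile or library size scaling, a mean CPM of at least 1, limma-voom, edgeR without its legacy setting, no fold threshold, and the GC adjustment chosen after seeing the data, 0 subunit genes were called in either direction. Without a filter on low counts edgeR called 2 lower, Cox8b (log2 fold change -5.93) and Ndufa7 (-4.20), and 0 higher. Of all genes, this setting called 3.32% lower and 5.55% higher. DESeq2 called 1 lower and 1 higher, Cox8b (-6.03) and Cox6b2 (2.07), against 4.59% and 9.42% of all genes. Upper quartile scaling, which shifted the median of all genes to -0.14, left 4 genes higher at an unadjusted p under 0.05 and 12 above TRAMP in both pools, and put the complex V median at -0.26. With the GC adjustment 3 genes were higher at that p, and the complex II median was -0.17. A set of named subunit genes was followed through these settings. Within it, signs turned for Uqcrq (0.046 under library size scaling, 0.030 under GC adjustment) and Atp5a1 (-0.027 under upper quartile scaling). Under GC adjustment they also turned for Atp5d (-0.13), Cox4i1 (-0.051), Cox8a (-0.42) and Ndufs7 (-0.32). Subunit genes outside this set turned under GC adjustment too, among them Ndufv1 (0.01 to -0.50), Ndufb7 (0.29 to -0.53) and Cox7b (-0.47 to 0.08). The cause of these turns was not tested. Leaving out one Phf8-KO pool compares 1 library with 1 and allows no test: the complex I median ranged from -0.42 to -0.15, that of complex V from -0.13 without Phf8-KO1 to 0.019 without Phf8-KO2, the count above TRAMP from 19 to 36, Uqcrq from -0.25 to 0.17 and Atp5a1 from -0.015 to 0.24. No paired analysis was made, because no label pairs the TRAMP pool with a Phf8-KO pool. Low counts limit Ndufa7, Uqcrc1 and the restricted isoforms, and 1 TRAMP pool limits every comparison.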
